A study of Mus musculus with 20 samples.

Results

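RNA-seq of mouse liver was used here to set Fancd2 mutants given the androgen oxymetholone against untreated wild type mice, across all genes. The groups were 5 livers of mutant (d2-/-) mice on oxymetholone and 4 livers of wild type mice without treatment, that is 9 of the 18 libraries with counts, and they were taken by their labels alone. All mice were male, and livers were collected after 18 months of treatment. The remaining libraries came from mutants given both oxymetholone and metformin (3 libraries), metformin alone (3) or nothing (3), and they entered the fit to share its estimate of spread. Of 20 labelled samples the other 2 were not analysed here. The samples compared differ in both genotype and drug, so what either contributes cannot be told apart in this comparison. For that reason values in untreated mutants are set beside the results. Fancd2 was not analysed here, and so the genotype rests on the labels. Nothing in the labels states that the libraries are from different mice, and p-values measure only the spread between these samples.

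Oxymetholone is a synthetic anabolic androgen that has been given against the bone marrow failure of Fanconi anaemia. FANCD2 is the protein of that disease's repair pathway that is tagged with ubiquitin at DNA crosslinks and brings in the repair nucleases. The liver is also the main site of steroid breakdown, and many of its cytochrome P450 genes, whose enzymes hydroxylate steroids and drugs, differ in level between male and female mice under the control of growth hormone and sex steroids.

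Libraries held 21819882 to 32747780 counts in oxymetholone mutants and 23739960 to 29180714 in wild type. The 10 hepatocyte markers summed to 78954 to 122094 CPM in oxymetholone mutants and 86341 to 104554 CPM in wild type, so the RNA carries the markers of the labelled tissue. CPM, the unit of all levels here, is the count of a gene scaled to a common library total with edgeR's TMM factors. Oxymetholone mutant replicate 3 stood apart by its mitochondrial RNA (8.19% of counts, against at most 2.55% in the other 4 and 2.95 to 3.85% in wild type). Replicate 4 of that group stood apart by the share of its 10 largest genes (29.0%, against at most 19% in the other 4 and 15.6 to 18.5% in wild type). Over 16 measures of depth, composition and cell type markers no difference between the groups passed (exact two-sided permutation tests over 126 arrangements, adjusted p = 0.992 for each, with 0.0079 the smallest p possible before adjustment). A lone measure could not have passed after adjustment over 16, however far apart the groups lay, so these tests cannot exclude a difference in any single measure. The smallest unadjusted p was 0.0794, for the summed markers of sinusoidal endothelial cells. In bulk liver, fewer cells of a type and less RNA per cell cannot be told apart.

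A small set of genes separated the groups. The steroid receptor gene Paqr8 and the Wnt inhibitor gene Wif1, both higher in oxymetholone mutants, had the smallest p-values, followed by Tmem62, which was lower. The largest differences were those of the steroid hydroxylase gene Cyp2a4 and the transporter gene Slco4c1, which did not pass in every fit with 1 library left out. EdgeR's quasi-likelihood test called 16 of 16115 genes at a Benjamini-Hochberg adjusted p under 0.05 (0.0993% of genes), of which 11 rose (0.0683%) and 5 fell (0.0310%) in oxymetholone mutants relative to wild type. At an unadjusted p under 0.05 stood 727 genes (4.51%), 396 of them higher (2.46%) and 331 lower (2.05%). Groups did not overlap in any of the 16 called genes, whereas 338 of all genes (2.10%) had groups without overlap. With each of the 9 libraries left out in turn 9 to 17 genes were called, and 8 of the 16 (Paqr8, Wif1, Lncbate1, Rab38, Gm10440, Tmem62, Ubr1 and Tenm3) passed every time. Called log2 differences ran from 3.14 to 6.06 among the genes that rose and from −2.38 to −1.91 among those that fell. The median over all genes was 0.01.

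**Figure D1:**
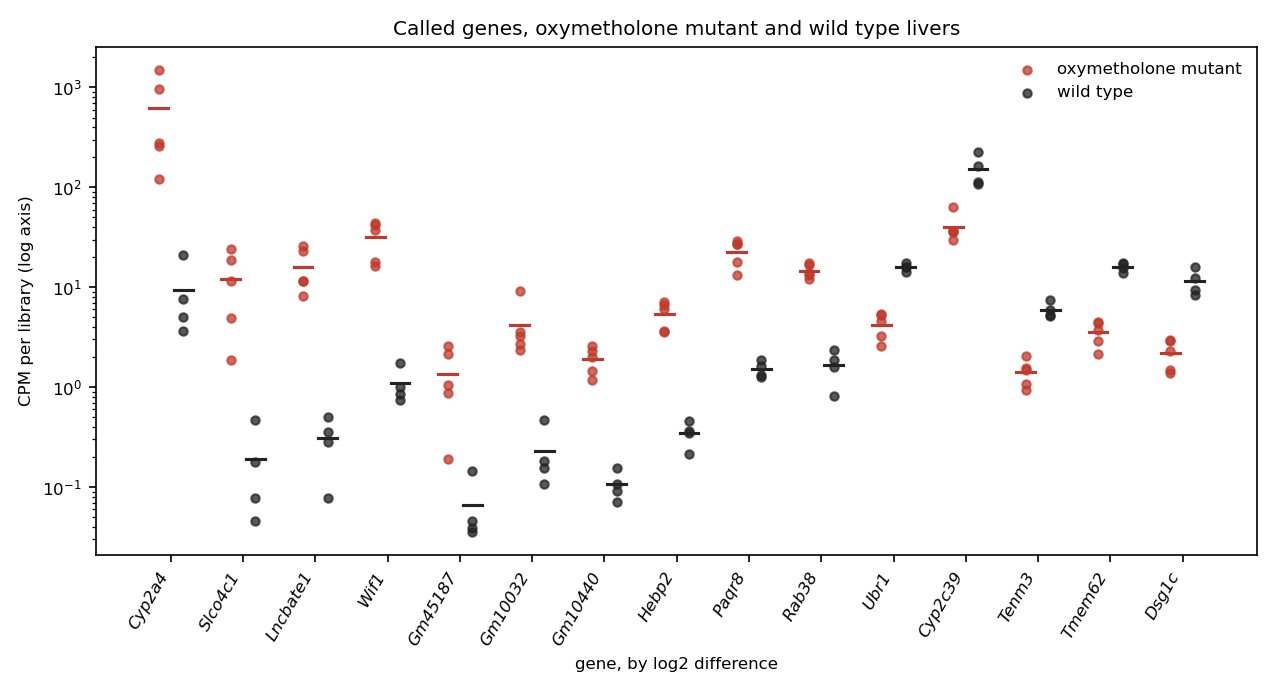
CPM per library (log axis) of 15 of the 16 called genes, ordered by log2 difference, with oxymetholone mutants (red, 5 libraries) left of wild type (black, 4 libraries) and bars at the group means. In each gene the points of the 2 groups are separate, as in Cyp2a4 with at least 122 CPM in oxymetholone mutants and at most 21.2 CPM in wild type.

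The strongest test result was that of Paqr8, which encodes a membrane progestin receptor, a receptor family that senses steroids at the cell surface. Oxymetholone mutants 1 to 5 had 17.7, 26.9, 13.4, 28.9 and 27 CPM of Paqr8, and wild types 1 to 4 had 1.33, 1.89, 1.25 and 1.62 CPM. The lowest oxymetholone library thus lay far above the highest wild type library. Paqr8 rose 14.9-fold (log2 difference 3.90 ± 0.34 SE, edgeR adjusted p = 4.68e-05). Its relative Paqr7, another membrane progestin receptor, averaged 36.4 ± 14.4 CPM in oxymetholone mutants and 26.4 ± 7.05 CPM in wild type, and did not pass (0.46 ± 0.32, edgeR adjusted p = 0.9996). Pgrmc2, a haem-binding membrane protein of the progesterone receptor component family, had the second smallest p among the 13 steroid receptor and progestin receptor genes tested (−0.47 ± 0.18, edgeR adjusted p = 0.889).

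The 250 bases before the starts of Paqr8 and Slco4c1 are shown because these called genes carry a steroid receptor half-site there. Sequences are RefSeq's for GRCm38.p6, while the counts were made on GRCm39, and no coordinate was converted. Capitals mark AGAACA or its reverse complement TGTTCT, the half-site letters of steroid receptors such as the glucocorticoid receptor, searched on both strands.
Paqr8, first start (chr1:20890298-20890547, plus strand): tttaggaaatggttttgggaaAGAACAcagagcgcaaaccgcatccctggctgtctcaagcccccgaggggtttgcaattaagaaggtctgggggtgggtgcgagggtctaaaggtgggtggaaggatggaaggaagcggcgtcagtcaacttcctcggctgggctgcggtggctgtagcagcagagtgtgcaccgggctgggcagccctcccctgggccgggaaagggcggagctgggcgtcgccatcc
Paqr8, second start (chr1:20917590-20917839, plus strand): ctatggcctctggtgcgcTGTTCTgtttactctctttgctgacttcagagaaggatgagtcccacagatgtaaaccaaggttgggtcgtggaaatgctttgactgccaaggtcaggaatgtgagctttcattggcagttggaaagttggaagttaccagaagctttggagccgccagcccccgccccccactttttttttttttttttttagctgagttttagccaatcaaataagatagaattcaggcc
Slco4c1 (chr1:96872172-96872421, minus strand): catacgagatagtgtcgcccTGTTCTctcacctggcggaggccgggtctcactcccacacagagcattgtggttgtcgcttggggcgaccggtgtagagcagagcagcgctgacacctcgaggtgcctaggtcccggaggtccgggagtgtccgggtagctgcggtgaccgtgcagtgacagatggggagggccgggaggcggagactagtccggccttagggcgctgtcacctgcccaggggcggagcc
Windows were used for 10 of the 16 called genes. Those on the chromosome of Dsg1c were left out for called genes but kept among all 32851 windows. Of the 12 windows of these genes 4 (33.3%) held the half-site, 1 each of Slco4c1 and Cyp2c39 and both of Paqr8, where 16.1% of 32851 windows of this length did. The bases just after the first Paqr8 start and after both Cyp2c39 starts matched no transcript of these genes in the GENCODE annotation, unlike those after the other starts. The full element, AGAACA and TGTTCT with 3 bases between them, was in no window of a called gene and in 0.00913% of all windows. A match describes the letters only, and no binding was measured.

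Wif1 encodes a secreted protein that binds Wnt ligands and keeps them from their receptors. In oxymetholone mutants 1 to 5 its levels were 41.7, 44, 18.1, 16.3 and 37.6 CPM, and in wild types 1 to 4 they were 1.01, 0.855, 0.752 and 1.74 CPM. Every oxymetholone library lay above every wild type library, with replicates 3 and 4 lowest among the treated. Wif1 rose 28.9-fold (4.85 ± 0.50, edgeR adjusted p = 0.000241). Among the 26 tested genes of Wnt signalling and pericentral hepatocytes it was the single gene called, and the list's median was −0.13, with 7 genes higher and 19 lower. Window letters of Wif1 and of Cyp2a4, the gene with the largest difference, are given for comparison with those above, and neither holds the half-site.
Wif1 (chr10:121033754-121034003, plus strand): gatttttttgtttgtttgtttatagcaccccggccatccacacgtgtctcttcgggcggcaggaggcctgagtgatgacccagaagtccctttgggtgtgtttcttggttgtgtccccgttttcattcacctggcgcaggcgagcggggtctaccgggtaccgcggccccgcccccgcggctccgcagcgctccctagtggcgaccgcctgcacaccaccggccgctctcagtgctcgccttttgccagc
Cyp2a4 (chr7:26306942-26307191, plus strand): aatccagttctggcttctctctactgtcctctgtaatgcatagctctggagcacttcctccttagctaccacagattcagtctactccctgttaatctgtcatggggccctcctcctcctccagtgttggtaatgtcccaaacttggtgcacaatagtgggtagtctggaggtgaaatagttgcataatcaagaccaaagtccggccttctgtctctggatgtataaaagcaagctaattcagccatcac

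Slco4c1 encodes an organic anion transporter that carries steroid conjugates, thyroid hormone and cardiac glycosides. Its levels were 11.4, 24.3, 1.86, 4.91 and 18.6 CPM in oxymetholone mutants and 0.046, 0.178, 0.466 and 0.0771 CPM in wild type. Wild type was close to the limit of detection, with 1 to 13 counts per library, and treated replicate 3 was far below replicate 2. Slco4c1 rose (5.92 ± 1.02, edgeR adjusted p = 0.0263). With 1 library left out that adjusted p was 0.0138 to 0.179, above 0.05 without oxymetholone mutant replicate 1, 2 or 5 or any 1 of the 4 wild types. The noncoding gene Panct2 is its neighbour in RefSeq and overlaps it, and had 0.714 to 4.75 CPM in oxymetholone mutants and 0 to 0.214 CPM in wild type (4.90 ± 1.07, edgeR adjusted p = 0.154). Reads of overlapping genes may have been assigned to either, since the strand setting is not given in the sources used here.

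Lncbate1 is a long noncoding RNA known from brown fat cells. It had 23, 25.7, 8.14, 11.6 and 11.5 CPM in oxymetholone mutants and 0.506, 0.285, 0.358 and 0.0771 CPM in wild type, a rise of 5.70 ± 0.67 on the log2 scale (edgeR adjusted p = 0.00057). It overlaps the span of Zfhx3, a transcription factor gene with 2.48 to 19.4 CPM in oxymetholone mutants and 2.79 to 6.36 CPM in wild type. Zfhx3 overlapped between the groups, unlike Lncbate1.

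Rab38, a small GTPase that directs cargo to lysosome-related organelles, was even across the treated libraries. It had 16.8, 17.4, 12.1, 13.2 and 13.8 CPM in oxymetholone mutants and 1.89, 0.819, 2.36 and 1.58 CPM in wild type (3.14 ± 0.37, edgeR adjusted p = 0.00057). Hebp2, of a family of haem-binding proteins, had 6.05, 7.12, 3.57, 6.65 and 3.68 CPM in oxymetholone mutants and 0.215 to 0.463 CPM in wild type (3.94 ± 0.71, edgeR adjusted p = 0.0358). In wild type Hebp2 was near detection, at 6 to 13 counts per library. With 1 library left out its adjusted p reached 0.204, and it passed only without oxymetholone mutant replicate 3.

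A further 3 called genes that rose have only symbols of predicted genes. Gm10440 had 1.19 to 2.56 CPM in oxymetholone mutants and 0.0712 to 0.154 CPM in wild type (4.10 ± 0.58, edgeR adjusted p = 0.00423). Gm10032 had 2.33 to 9.09 CPM in oxymetholone mutants and 0.107 to 0.466 CPM in wild type (4.17 ± 0.66, edgeR adjusted p = 0.0146). Gm45187 had 0.191 to 2.57 CPM in oxymetholone mutants and 0.0356 to 0.143 CPM in wild type, where it rests on 7 counts in all (4.27 ± 0.76, edgeR adjusted p = 0.0331). All 3 were low even where they were higher. With 1 library left out Gm10032 reached an adjusted p of 0.0968 (without wild type replicate 1, 2 or 4 it did not pass), and Gm45187 reached 0.204 and passed only without oxymetholone mutant replicate 3, while Gm10440 passed throughout.

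Among the cytochrome P450 genes 1 Cyp2a gene was called higher and 1 Cyp2c gene lower. With these included, 3 of 4 Cyp2a genes were higher and 12 of 13 Cyp2c genes lower in oxymetholone mutants. Of all genes 51.7% were higher and 48.3% lower. Cyp2a4 encodes a steroid hydroxylase that acts on testosterone and is typical of female mouse liver. It had 281, 967, 257, 122 and 1492 CPM in oxymetholone mutants and 7.64, 21.2, 5.01 and 3.62 CPM in wild type. Replicates 2 and 5 were highest among the treated, and the lowest treated library exceeded the highest wild type library. Cyp2a4 rose 66.5-fold (6.06 ± 1.0, edgeR adjusted p = 0.0195). With 1 library left out the adjusted p was 0.0150 to 0.145, above 0.05 without wild type replicate 1, 3 or 4. Cyp2a5, a coumarin hydroxylase and a near-identical copy of Cyp2a4, had 789, 2379, 424, 851 and 5335 CPM in oxymetholone mutants and 183, 535, 62.4 and 181 CPM in wild type. The groups overlapped in Cyp2a5 through oxymetholone mutant replicate 3 and wild type replicate 2, and it did not pass (3.02 ± 0.85, edgeR adjusted p = 0.401). Reads of these copies could have been split between them in counting, so their separate values are uncertain. Cyp2a12, another hydroxylase of the family, had 322 to 545 CPM in oxymetholone mutants and 317 to 620.0 CPM in wild type. Gm42375, next to Cyp2a4 in RefSeq and overlapping it, had 0.203 to 2.60 CPM in oxymetholone mutants and 0 to 0.463 CPM in wild type (3.27 ± 1.10, edgeR adjusted p = 0.669).

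Cyp2c39, a P450 that hydroxylates retinoic acid, was the P450 gene called lower. It had 36.6, 35.6, 29.6, 36.7 and 63.4 CPM in oxymetholone mutants and 108, 112, 228 and 162 CPM in wild type. Oxymetholone mutant replicate 5 was the high one of its group, and it remained below wild type. Cyp2c39 fell by 1.92 ± 0.32 on the log2 scale (edgeR adjusted p = 0.0195). Of the 13 Cyp2c genes tested, 12 had a lower level in oxymetholone mutants, where 48.3% of all genes did, 8 of them at an unadjusted p under 0.05, and the median difference was −1.39. Cyp2c29, an abundant arachidonic acid epoxygenase, had 185 to 855 CPM in oxymetholone mutants and 844 to 5303 CPM in wild type (−2.26 ± 0.88, edgeR adjusted p = 0.871). Cyp2c67 had 128 to 362 CPM in oxymetholone mutants and 323 to 791 CPM in wild type (−1.39 ± 0.41, edgeR adjusted p = 0.486). Cyp2c38 had 5.07 to 28.8 CPM in oxymetholone mutants and 26.8 to 39.7 CPM in wild type (−1.56 ± 0.52, edgeR adjusted p = 0.667). Cyp2c70, which makes muricholic acids in mice, averaged 1240 ± 325 CPM in oxymetholone mutants and 1479 ± 192 CPM in wild type (−0.25 ± 0.27, edgeR adjusted p = 0.9996). Cyp2c29, Cyp2c39, Cyp2c38, Cyp2c67 and Cyp2c68 follow each other in RefSeq, where the model of Cyp2c39 spans Cyp2c38, so reads may have been assigned to either and these genes are not independent.

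**Figure D2:**
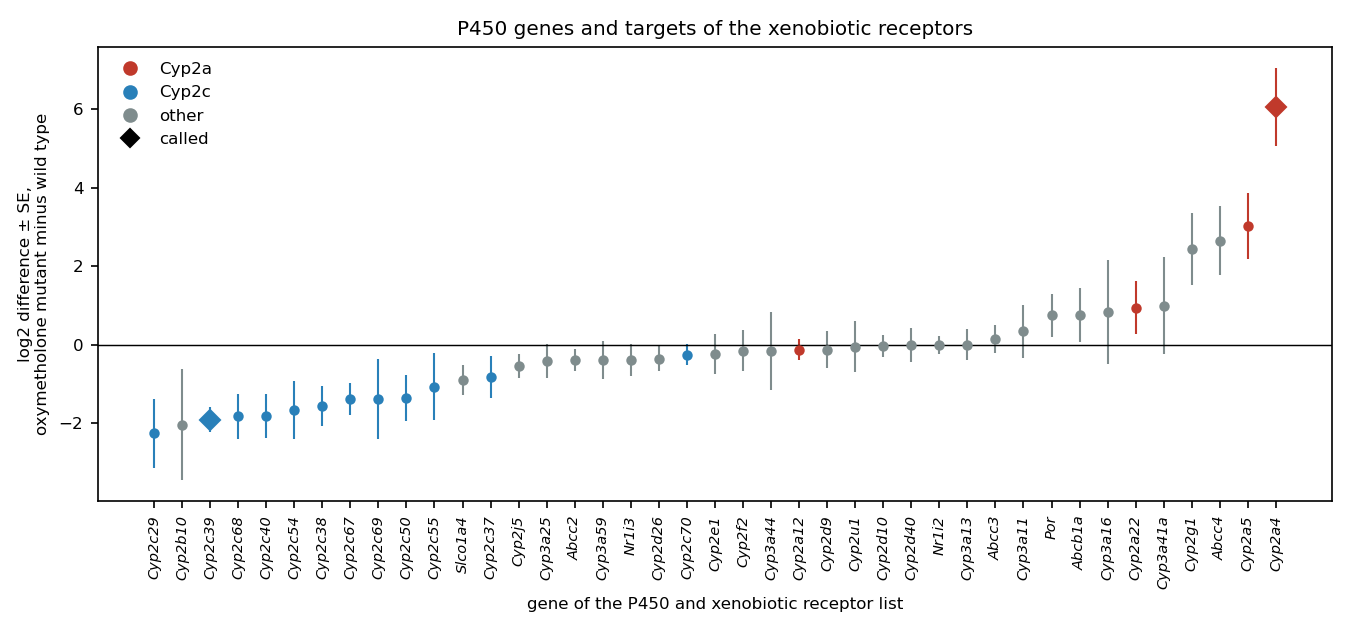
Log2 difference ± SE, oxymetholone mutant minus wild type, of 41 P450 genes and xenobiotic receptor targets, with Cyp2a genes red, Cyp2c genes blue and called genes as diamonds. Cyp2a4 (6.06) and Cyp2a5 (3.02) stand at the high end, and Cyp2c genes fill most of the low end, with Cyp2c39 (−1.92) called.

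Over the whole list of P450 genes and targets of the xenobiotic receptors PXR and CAR, 12 of 41 had a higher and 29 a lower level in oxymetholone mutants, with 1 called in each direction and 13 (31.7%) at an unadjusted p under 0.05, against 4.51% of all genes. The median was −0.23. Cyp2b10, the classic CAR target, had 21.8 to 43.8 CPM in oxymetholone mutants and 2.62, 2.46, 9.24 and 482 CPM in wild types 1 to 4. Cyp2c39 differed by −2.14 to −1.66 over all alternative settings. With 1 library left out its adjusted p was 0.0106 to 0.0916, above 0.05 without oxymetholone mutant replicate 1, 2, 3 or 4 or wild type replicate 3 or 4.

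Tmem62 and Ubr1, neighbours on chromosome 2 on opposite strands, both fell. Tmem62, a transmembrane protein gene, had 3.73, 2.93, 4.52, 4.38 and 2.14 CPM in oxymetholone mutants and 17.4, 15.6, 17 and 14 CPM in wild type. It fell by 2.18 ± 0.24 on the log2 scale (edgeR adjusted p = 0.000413). Ubr1, a ubiquitin ligase that recognises destabilising N-terminal residues, had 5.45, 5.23, 4.57, 3.25 and 2.60 CPM in oxymetholone mutants and 17.4, 15.8, 14.3 and 15.8 CPM in wild type. It fell by 1.91 ± 0.25 (edgeR adjusted p = 0.00173). In both genes the spread within each group was small beside the gap between groups. The next genes on either side had groups that overlapped. Ttbk2, a tau tubulin kinase gene on the side of Ubr1, had 2.23 to 2.72 CPM in oxymetholone mutants and 2.22 to 3.04 CPM in wild type, with a log2 difference of −0.15 ± 0.25 (edgeR adjusted p = 0.9996). Ccndbp1, a cyclin-binding protein gene on the side of Tmem62, had 14.1 to 20.4 CPM in oxymetholone mutants and 16.8 to 19.7 CPM in wild type. The 250 bases before each start are given because the pair moved together, and neither holds the half-site.
Tmem62 (chr2:120976812-120977061, plus strand): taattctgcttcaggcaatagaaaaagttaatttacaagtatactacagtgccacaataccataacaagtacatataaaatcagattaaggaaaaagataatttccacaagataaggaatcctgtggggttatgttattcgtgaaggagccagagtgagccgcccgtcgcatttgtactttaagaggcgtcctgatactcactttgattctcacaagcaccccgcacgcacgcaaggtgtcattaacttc
Ubr1 (chr2:120970716-120970965, minus strand): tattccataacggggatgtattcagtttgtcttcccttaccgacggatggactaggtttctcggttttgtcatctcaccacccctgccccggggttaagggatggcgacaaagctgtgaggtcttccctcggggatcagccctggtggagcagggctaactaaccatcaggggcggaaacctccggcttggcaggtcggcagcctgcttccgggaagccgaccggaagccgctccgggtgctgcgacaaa

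Of the other genes that fell, Tenm3 encodes a teneurin, a transmembrane adhesion protein of neurons. It had 1.08, 0.927, 1.48, 1.54 and 2.03 CPM in oxymetholone mutants and 5.16, 5.95, 5.34 and 7.40 CPM in wild type (−2.07 ± 0.30, edgeR adjusted p = 0.00647). Dsg1c, a desmoglein that joins cells in desmosomes, had 2.32, 1.48, 3, 1.38 and 2.87 CPM in oxymetholone mutants and 8.42, 12.2, 9.49 and 15.9 CPM in wild type (−2.38 ± 0.40, edgeR adjusted p = 0.024). Neither gene overlapped between the groups. Dsg1c had an adjusted p of 0.0408 to 0.115 with 1 library left out and passed only without oxymetholone mutant replicate 3 or wild type replicate 1. The predicted gene Gm19744 overlaps Tenm3 in RefSeq and differed by 1.38 ± 0.89 (edgeR adjusted p = 0.9996).

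Just outside the threshold stood Ren1, the renin gene, with 19.9, 22.9, 36.4, 15.2 and 10.4 CPM in oxymetholone mutants and 2.90, 2.81, 4.01 and 1.70 CPM in wild type (2.87 ± 0.54, edgeR adjusted p = 0.0514). Renin starts the angiotensin cascade, and in mice its reads can be shared with Ren2, a near copy that some strains carry. Next came Slc20a1, a phosphate transporter (1.66 ± 0.32, edgeR adjusted p = 0.0717), the small membrane protein gene Smim22 (3.23 ± 0.63, 0.0763), the X-linked gene Xlr4c (4.78 ± 0.95, 0.0823), the kinase adaptor Cables1 (1.41 ± 0.29, 0.114) and the dendritic cell chemokine receptor Xcr1 (1.58 ± 0.33, 0.114). Each of these 6 had higher values in every oxymetholone library than in any wild type library. Hebp2, at an adjusted p of 0.0358, was the called gene nearest the threshold.

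Comparisons with the other mutants place the 16 genes, though they share libraries and the genes were chosen by their call against wild type. Oxymetholone mutants minus untreated mutants shares the 5 oxymetholone libraries, and untreated mutants minus wild type shares the 4 wild types, so the values are set side by side without a test of likeness. Paqr8 differed by 4.0 ± 0.39 between oxymetholone and untreated mutants and by −0.10 ± 0.36 between untreated mutants and wild type. Wif1 differed by 5.49 ± 0.60 and −0.64 ± 0.54 in these comparisons, Tmem62 by −2.52 ± 0.26 and 0.34 ± 0.27, and Ubr1 by −1.92 ± 0.26 and 0.01 ± 0.28. Among other called genes, Cyp2a4 differed by 4.78 ± 1.07 and 1.28 ± 0.88, Rab38 by 2.32 ± 0.40 and 0.81 ± 0.38, and Tenm3 by −1.42 ± 0.32 and −0.66 ± 0.34. EdgeR called 6 of the 16 between oxymetholone and untreated mutants, where it called 7 genes in all (0.0434%). It called none of the 16 between untreated mutants and wild type, where it called 0 genes and 416 genes (2.58%), 1 of the 16 among them, stood at an unadjusted p under 0.05. In the authors' deposited table, whose comparisons do not include oxymetholone mutants against wild type, 9 of the 16 had an adjusted p under 0.05 between oxymetholone and untreated mutants, and 0 between untreated mutants and wild type.

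**Figure D3:**
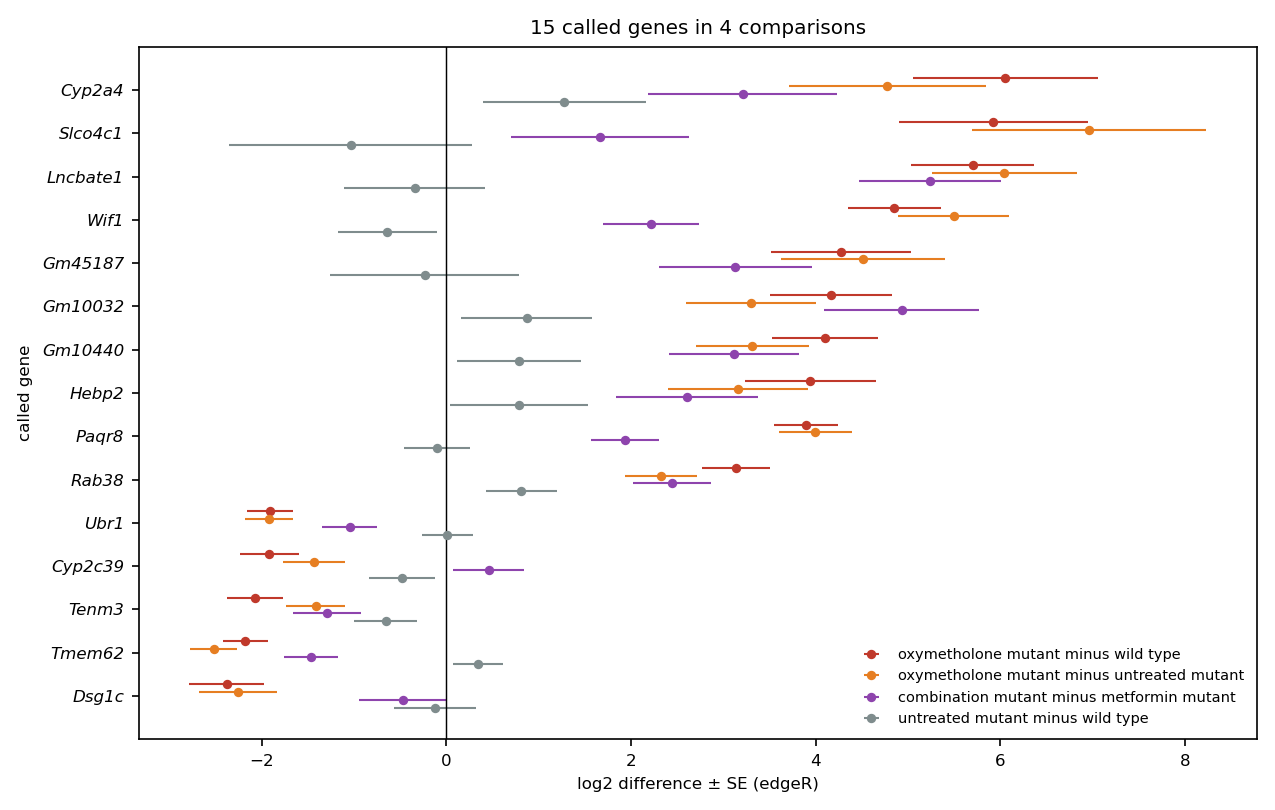
Log2 difference ± SE (edgeR) of 15 of the 16 called genes in oxymetholone mutants minus wild type (red), oxymetholone minus untreated mutants (orange), combination minus metformin mutants (purple) and untreated mutants minus wild type (grey). Grey points lie between −1.04 and 1.28, and red points lie at −1.91 or below or at 3.14 or above. The genes were chosen by their call in the red comparison, so the distance of red points from the zero line was set by that choice.

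Mutants given both drugs, set against those given metformin alone, form a comparison of oxymetholone that shares no library with the one described here. Both come from the same fit and share its estimate of spread for each gene, so their p-values are not independent. Of the 16 genes 15 had the same sign in it, where 58.5% of all genes did, and 13 had an unadjusted p under 0.05 there, where 3.43% of all genes did. In 11 the combination and metformin groups were without overlap in the same direction, where 4.39% of all genes had no overlap in either direction. None was called, nor was any gene of the table. Lncbate1 came nearest, with 21.1, 7.85 and 4.28 CPM in combination mutants and 0.368, 0.0991 and 0.406 CPM in metformin mutants (5.24 ± 0.77, edgeR adjusted p = 0.0555). Paqr8 had 10.9, 9.94 and 13.1 CPM in combination mutants and 1.63, 4.92 and 2.29 CPM in metformin mutants (1.93 ± 0.37, edgeR adjusted p = 0.306). Tmem62 had 5.55, 6.53 and 7.03 CPM in combination mutants and 15.4, 12.6 and 24.7 CPM in metformin mutants (−1.46 ± 0.29, edgeR adjusted p = 0.371). Cyp2c39 was the exception in sign, with 126, 88 and 115 CPM in combination mutants and 114, 70.5 and 55.8 CPM in metformin mutants (0.46 ± 0.38, edgeR adjusted p = 0.999). The oxymetholone difference without metformin minus that with it was −1.89 ± 0.51 in Cyp2c39 (edgeR unadjusted p = 0.00181). It was 3.28 ± 0.72 in Wif1 (edgeR unadjusted p = 0.000303), 2.06 ± 0.50 in Paqr8 (0.000741), 5.30 ± 1.52 in Slco4c1 (0.00291) and −1.06 ± 0.39 in Tmem62 (0.0141). Each of these had the larger difference without metformin. Gm10032 (−1.63 ± 1.01) had the larger one with it, while in Rab38 the value was smaller than its SE (−0.12 ± 0.54). After adjustment over all genes this test had an edgeR adjusted p of 0.863 or more for each of the 16. The 16 were chosen by a call that used the oxymetholone libraries, which form the side without metformin. A larger difference on that side was thus favoured in advance, and the unadjusted p-values are biased towards small values.

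**Figure D4:**
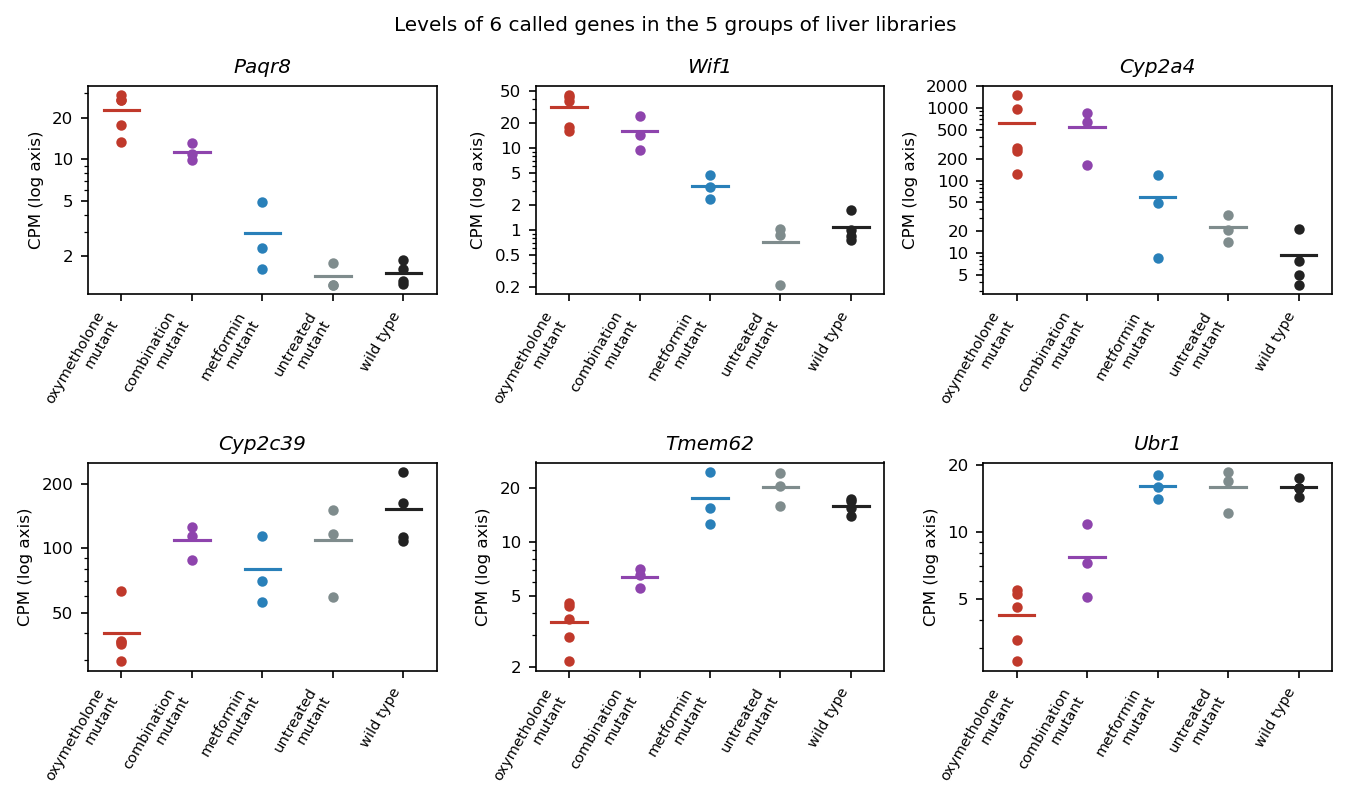
CPM per library (points, log axis) and group means (bars) of 6 called genes in the 5 groups, from oxymetholone mutants at the left to wild type at the right. Paqr8, Wif1 and Cyp2a4 are high, and Tmem62 and Ubr1 low, in both groups given oxymetholone, whereas Cyp2c39 in combination mutants (88 to 126 CPM) overlaps untreated mutants (59.2 to 152 CPM).

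Genes known to respond to androgens and glucocorticoids gave no call. Of 23 tested, 14 had a higher and 9 a lower level in oxymetholone mutants, where 51.7% of all genes were higher. The list's median was 0.24, and 4 had an unadjusted p under 0.05 (17.4%), against 4.51% of all genes. Odc1, the ornithine decarboxylase of polyamine synthesis and an androgen target in mouse kidney, had 104, 102, 61.8, 69.5 and 124 CPM in oxymetholone mutants and 64, 47.1, 42.6 and 50.2 CPM in wild type (0.86 ± 0.22, edgeR adjusted p = 0.31). Fkbp5, a chaperone of steroid receptors and their target, had 11.5 to 96 CPM in oxymetholone mutants and 5.20 to 32.1 CPM in wild type (1.74 ± 0.69, edgeR adjusted p = 0.891). Without oxymetholone mutant replicate 4, which had the highest Fkbp5, the list's median was −0.01. Amd1, the decarboxylase that makes the aminopropyl donor of polyamine synthesis, had 33.5 to 51.4 CPM in oxymetholone mutants and 55.9 to 81.5 CPM in wild type (−0.67 ± 0.26, edgeR adjusted p = 0.868).

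Sex-biased liver genes gave a single call. Of 26 male-biased genes 12 were higher and 14 lower in oxymetholone mutants with a median of −0.07, and of 28 female-biased genes 17 were higher and 11 lower with a median of 0.24, Cyp2a4 being the only call in either list. The female-biased median was 0.0032 without oxymetholone mutant replicate 5, 0.94 without wild type replicate 3 and −0.05 in the authors' residuals. The male-biased median was −0.25 to 0.13 with 1 library left out, and −0.07 to 0.46 over the main fit and the other settings, so its sign is not settled. Among male-biased genes Mup20, the urinary pheromone darcin, had 5319, 9584, 899, 1119 and 4452 CPM in oxymetholone mutants and 1230, 1136, 170.3 and 433 CPM in wild type (2.53 ± 0.76, edgeR adjusted p = 0.503). The 21 Mup genes as a family had a median of 0.06, and their reads are shared among near-identical copies. Among female-biased genes Nipal1, a magnesium transporter, had 3.81 to 23.3 CPM in oxymetholone mutants and 0.463 to 3.08 CPM in wild type (3.18 ± 0.84, edgeR adjusted p = 0.324).

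Interferon-induced genes were higher in oxymetholone mutants in 37 of 37 cases, with a median of 0.69, where 51.7% of all genes were higher. None was called and 7 (18.9%) had an unadjusted p under 0.05, against 4.51% of all genes. Usp18, which removes the ubiquitin-like ISG15 and dampens interferon signalling, had 6.89, 19.6, 7.81, 25.1 and 30.4 CPM in oxymetholone mutants and 3.82, 4.63, 4.80 and 4.09 CPM in wild type (2.05 ± 0.64, edgeR adjusted p = 0.56). The groups did not overlap, and the treated spread was wide. Oasl1, an oligoadenylate synthetase-like antiviral gene, reached 129 CPM in oxymetholone mutant replicate 5, against at most 13.6 CPM in the other 4 and 6.87 CPM in wild type (2.63 ± 0.96, edgeR adjusted p = 0.766). The median was 0.41 without that library and 0.22 in the authors' residuals.

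Targets of NRF2, the antioxidant transcription factor, were higher in 23 of 33, with a median of 0.17 and 6 at an unadjusted p under 0.05 (18.2%). Of all genes 51.7% were higher and 4.51% stood under 0.05. Gsta1, a glutathione transferase, had 2.32, 37.9, 0.952, 0.852 and 128 CPM in oxymetholone mutants and 0.368, 3.77, 0.501 and 0.54 CPM in wild type (4.69 ± 1.71, edgeR adjusted p = 0.766). Cbr3, a carbonyl reductase, had 1.48, 18.5, 0.667, 2.23 and 75.7 CPM in oxymetholone mutants and at most 3.13 CPM in wild type (3.67 ± 1.29, edgeR adjusted p = 0.731). In both genes the other 3 oxymetholone libraries overlapped wild type. The list's median was −0.02 without replicate 5.

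Cholesterol synthesis genes were lower in 23 of 25, with a median of −0.46, where 48.3% of all genes were lower. None was called and 3 (12%) had an unadjusted p under 0.05, against 4.51% of all genes. Hsd17b7, an enzyme of the sterol pathway that also reduces oestrone, had 112, 45.8, 93.7, 114 and 57.8 CPM in oxymetholone mutants and 135, 115, 194 and 154 CPM in wild type (−0.82 ± 0.32, edgeR adjusted p = 0.891). Sc5d, a late desaturase of the pathway, had 158 to 478 CPM in oxymetholone mutants and 399 to 656 CPM in wild type (−0.79 ± 0.31, edgeR adjusted p = 0.871). The list's median was −0.27 to −0.61 when 1 library was left out.

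Clock genes differed in both directions without a call, with a median of 0.36 over 23. At an unadjusted p under 0.05 stood 3 each way (26.1% in all), against 4.51% of all genes. Arntl, which encodes the clock activator BMAL1, had 2.88, 2.11, 2.19, 4.06 and 2.06 CPM in oxymetholone mutants and 8.33, 3.35, 9.85 and 11.6 CPM in wild type (−1.64 ± 0.58, edgeR adjusted p = 0.731). Usp2, a deubiquitinase driven by the clock, had 3.82 to 50.6 CPM in oxymetholone mutants and 1.61 to 7.19 CPM in wild type (2.66 ± 0.78, edgeR adjusted p = 0.487). Ciart, a repressor in the clock's feedback loop, had 0.816 to 8.19 CPM in oxymetholone mutants and 0.578 to 1.18 CPM in wild type (2.33 ± 0.75, edgeR adjusted p = 0.615). The labels give no hour of collection, so differences in it were not tested.

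Stress and metabolic lists gave no call. Groups were without overlap in 2 of 20 integrated stress response genes, 3 of 42 urea cycle and amino acid genes, 3 of 31 lipid droplet and lipogenesis genes and 3 of 29 bile acid genes, where they were in 2.10% of all genes. They were so in 0 of 20 unfolded protein response genes, 0 of 36 fat oxidation genes and 1 of 37 glucose metabolism genes. Ddit3, which encodes the stress factor CHOP, had 4.25, 8.20, 3.95, 7.38 and 6.85 CPM in oxymetholone mutants and 3.31, 3.38, 3.12 and 2.74 CPM in wild type (0.97 ± 0.26, edgeR adjusted p = 0.351), in a list of 20 integrated stress response genes with 14 higher and a median of 0.28. Amt, an aminomethyltransferase of glycine cleavage, had 36.5 to 76.8 CPM in oxymetholone mutants and 78.3 to 116 CPM in wild type (−0.86 ± 0.23, edgeR adjusted p = 0.34), in a list of 42 urea cycle and amino acid genes with 31 lower and a median of −0.17. Elovl5, a fatty acid elongase, had 184 to 327 CPM in oxymetholone mutants and 358 to 562 CPM in wild type (−0.91 ± 0.26, edgeR adjusted p = 0.397). Cyp39a1, an oxysterol hydroxylase of bile acid synthesis, had 30.2 to 76.1 CPM in oxymetholone mutants and 6.09 to 23.3 CPM in wild type (1.68 ± 0.56, edgeR adjusted p = 0.665). Akr1d1, the reductase that shapes the bile acid ring, had 93.5 to 175 CPM in oxymetholone mutants and 209 to 315 CPM in wild type (−1.02 ± 0.41, edgeR adjusted p = 0.961). The 29 bile acid genes had a median of −0.31, with 10 higher and 19 lower.

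**Figure D5:**
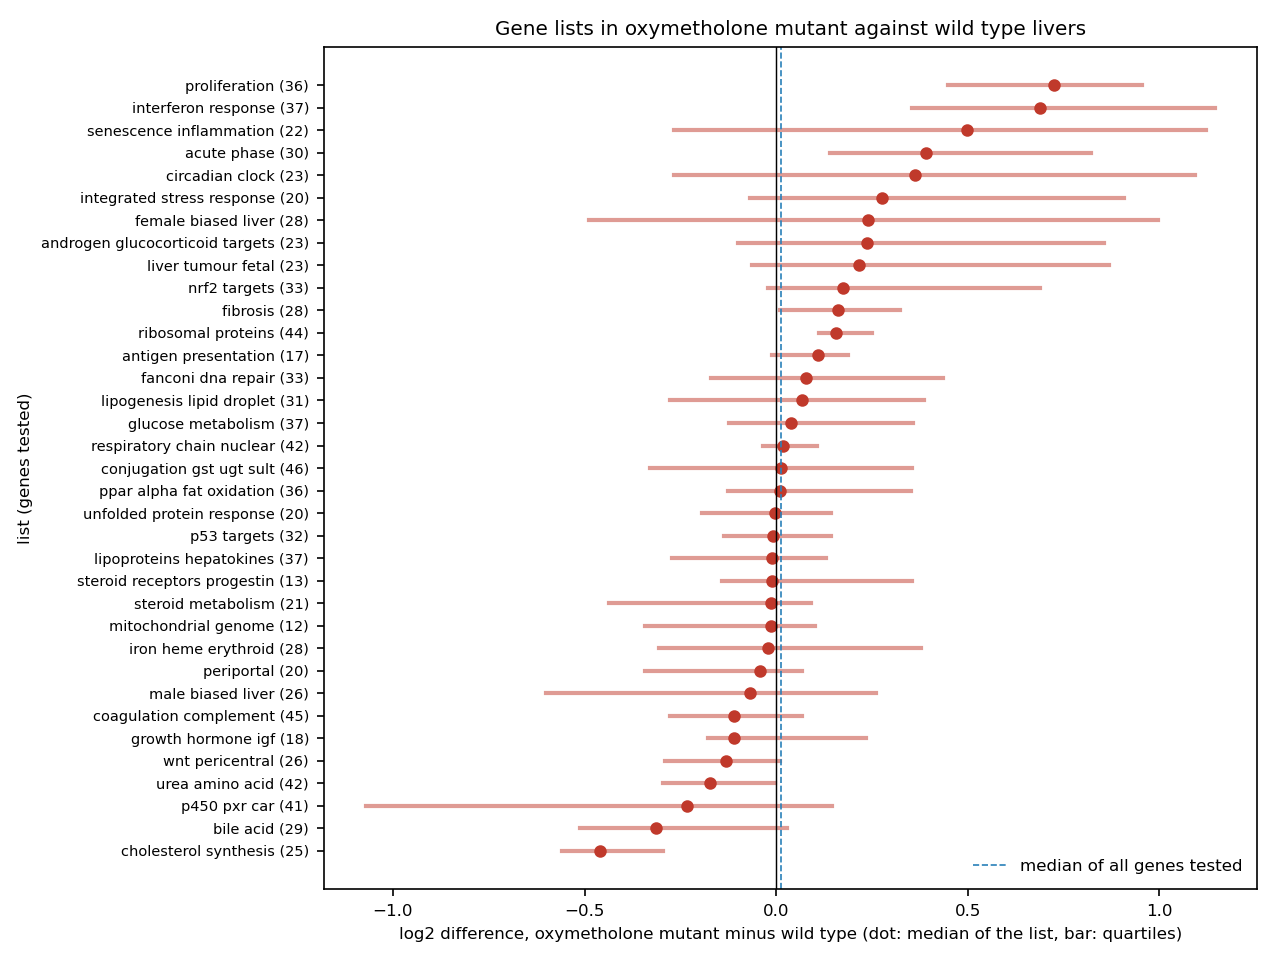
Median (dot) and quartiles (bar) of the log2 difference, oxymetholone mutant minus wild type, in 35 lists of genes, with the number tested in brackets and the median of all genes (0.01) dashed. Proliferation (0.73) and interferon response (0.69) have the highest medians and cholesterol synthesis (−0.46) the lowest.

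Proliferation genes had the highest list median, 0.73, with 34 of 36 higher, yet none had an unadjusted p under 0.05. Ribosomal protein genes were higher in 43 of 44 by a small median of 0.16, also with none under 0.05. The 33 genes of the Fanconi pathway and DNA repair had a median of 0.08 and the 32 p53 targets one of −0.01, and with 1 library left out these were −0.02 to 0.10 and −0.09 to 0.21. Among the p53 targets the death gene Bbc3, known as PUMA, had 7.04 to 11.1 CPM in oxymetholone mutants and 12.1 to 17.6 CPM in wild type (−0.72 ± 0.20, edgeR adjusted p = 0.431). The acute-phase list, proteins the liver secretes in inflammation, was higher in 25 of 30 with a median of 0.39, and −0.62 without oxymetholone mutant replicate 4. Its gene Saa1, serum amyloid, had 618, 283, 3637, 60440 and 453 CPM in oxymetholone mutants and 249.6, 768, 10020 and 660.5 CPM in wild type (2.16 ± 1.53, edgeR adjusted p = 0.9996).

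Markers of blood and immune cells gave no call. Where 48.3% of all genes were lower and 4.51% stood at an unadjusted p under 0.05, the neutrophil list had 10 of 11 lower and 6 under 0.05. Its median was the lowest, −2.27, and was 0.37 without wild type replicate 3. Its summed level was 63 to 3581 CPM in oxymetholone mutants and 47 to 1402 CPM in wild type. Camp, a neutrophil granule peptide, had 0.12, 0.26, 0, 2.68 and 0.813 CPM in oxymetholone mutants and 0.368, 0.285, 58.2 and 3.35 CPM in wild type (−4.32 ± 1.48, edgeR adjusted p = 0.704). Of the resident macrophage markers, Timd4, a receptor for dying cells, had 2.23 to 4.24 CPM in oxymetholone mutants and 4.34 to 14.3 CPM in wild type (−1.14 ± 0.46, edgeR adjusted p = 0.916), while the 12 markers of that cell type had a median of 0.20 with 8 higher, and −0.08 without oxymetholone mutant replicate 5. The 16 called genes kept their sign in every fit without 1 library, wild type replicate 3 included. Their groups do not overlap, which all but fixes that sign in advance, so it is no measure of stability.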

How the data were processed

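RNA-seq was made from mouse liver, with total RNA from a column kit and libraries from a service provider, per the labels. The genome build was GRCm39, as the submitters' processing notes name it, while aligner, counter, annotation and strand setting were not given in the sources used here, nor were the factors removed from the residuals. The authors deposited raw counts per gene for 18 libraries, CPM for the same libraries (18 columns not used here), log2 residuals and a table of log2 fold changes with adjusted p-values for their own comparisons.

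Counts of 16115 genes (13 without a symbol) were fitted with edgeR 4.0.16 in R 4.3.3 (TMM scaling, quasi-likelihood test), with 5 groups as the only term, so that all 18 libraries share an estimate of spread (common dispersion 0.181). The deposited table passed edgeR's filter on low counts whole. Differences are on the log2 scale, and adjustment was by Benjamini and Hochberg over all genes. Library totals were 21819882 to 32747780 counts in oxymetholone mutants and 23739960 to 29180714 in wild type. Library composition was compared by exact permutation. Replicates were numbered in the order of the sample records. Alternatives were DESeq2 1.42.0, limma 3.58.1, other scaling, filters and libraries, and limma on the deposited log2 residuals, a choice made after the data were examined.

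Named genes were those called with a mean log2 CPM of at least 0 over the 9 libraries, no overlap between groups and no predicted-gene symbol (the 15 largest rises and 15 largest falls), and up to 4 members of each list by p. The 3 called predicted genes, genes just outside the threshold, neighbours and further family members were chosen after their values were seen. The members and lists were chosen with earlier results of these data known. Promoter sequences came from RefSeq (GRCm38.p6). Of the 16 called genes 1 is counted but not reported here by name.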

Additional observations from a re-analysis of the deposited data

Results flagged for a closer look

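Within groups of 4 or 5 libraries, 5 of 38 group values checked held a library far from the others by Dixon's ratio, where chance flags about 1 in 20 groups. Cyp2c39 was at 63.4 CPM in oxymetholone mutant replicate 5, against 36.7 CPM in the nearest library of its group. Gm10032 was at 9.09 CPM in oxymetholone mutant replicate 4, against 3.60 CPM in the nearest. Gm45187 was at 0.143 CPM in wild type replicate 3, against 0.0460 CPM in the nearest, which corresponds to 4 counts at most in any wild type library. Oxymetholone mutant replicate 3 had 8.19% of its counts from the mitochondrial genome, against 2.55% in the nearest library. Oxymetholone mutant replicate 4 had 29% of its counts in its 10 largest genes, against 19% in the nearest library. The part of these libraries in the results was not tested beyond leaving each out.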

How the results depend on the processing

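The fit called 16 genes, 11 higher and 5 lower. DESeq2 called 89 (64 higher, 25 lower), limma-voom with quality weights 43 (29 and 14), and edgeR on the compared groups alone 25 (18 and 7). Limma on the deposited log2 residuals, chosen after the data were examined, called 418 (201 and 217). Each of these fits called all 16 except that on the compared groups alone, which called 15, without Gm45187. DESeq2's size factors gave 16, and a mean CPM of at least 1 gave 14 of 12737 genes tested. Leaving out the filter repeated the same fit, since the filter had removed no gene. With 1 library left out 9 to 17 genes were called, 5 to 13 higher and 3 to 5 lower. No called gene changed sign, which groups without overlap make near certain when 1 library is left out. Of 42 other genes given with a log2 difference 24 passed in some setting, among them Cyp2a5 and Ddit3 in DESeq2 and Elovl5 in limma-voom. Of the 42, 2 reversed. Saa1 ranged from −1.23 without oxymetholone mutant replicate 4 to 4.55 without wild type replicate 3, and Gm19744 was −0.17 in the residuals. The cause of these differences was not tested. Of 47 list medians 9 moved beyond the spread in some setting. Genes near 0 in wild type, such as Gm45187 with 7 counts in all, limit how well their fold is known. No paired analysis was possible because the labels carry no replicate numbers.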

Other observations

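Gene groups not described above gave no call. Senescence and inflammation genes had a median of 0.50 in oxymetholone mutants minus wild type (22 tested, 13 higher), and genes of liver tumours and fetal liver 0.22 (23 tested, 17 higher). These medians were 0.21 to 0.82 and 0.05 to 0.57 when 1 library was left out, and the first was −0.11 in the authors' residuals. Fibrosis genes were higher in 21 of 28 with a median of 0.16, and antigen presentation genes in 12 of 17 with a median of 0.11. Both turned sign without oxymetholone mutant replicate 5, to −0.01 for fibrosis and −0.27 for antigen presentation, and in the authors' residuals, to −0.21 and −0.26. Coagulation and complement genes were lower in 31 of 45 with a median of −0.11. Of these, Mug2, a protease inhibitor of the macroglobulin family, had 2.74 to 17.8 CPM in oxymetholone mutants and 13.4 to 247 CPM in wild type (−3.0 ± 0.75, edgeR adjusted p = 0.28), with the high value in wild type replicate 4, the library that was also high in Cyp2b10.

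Medians close to that of all genes were found for growth hormone and IGF genes (−0.11), conjugation enzymes (0.01), steroid metabolism (−0.01), the unfolded protein response (−0.0022), lipid droplet and lipogenesis genes (0.07), fat oxidation (0.01), glucose metabolism (0.04), periportal genes (−0.04), iron and haem genes (−0.02), lipoproteins and hepatokines (−0.01) and the nuclear respiratory chain (0.02). They were between −0.29 and 0.20 when 1 library was left out. The mitochondrial genome had a median of −0.01, and −0.66 without oxymetholone mutant replicate 3, the library with the largest mitochondrial share. Inhba, which encodes an activin subunit, had 3.28, 2.37, 4.43, 4.38 and 3.03 CPM in oxymetholone mutants and 8.01, 5.27, 6.88 and 13.6 CPM in wild type (−1.27 ± 0.33, edgeR adjusted p = 0.301), without overlap.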
